A study of Drosophila melanogaster with 15 samples.

Results

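The genes described here were 23 of the 16727 genes counted in cultured ovarian somatic cells (OSCs) of Drosophila melanogaster: genes already expressed in control cells that were at least 2-fold higher after knockdown (KD) of L(3)mbt and at most 1.25-fold higher after KD of Lint-O. OSCs are a cell line of somatic follicle cell character that lacks germ cells. All libraries came from OSCs treated with small interfering RNA (siRNA) for 48 h: 3 control libraries received siRNA against EGFP, a jellyfish gene that flies do not carry, 3 received siRNA against L(3)mbt and 3 against Lint-O, with no further treatment or allele named in the labels. The labels do not say whether the libraries of a condition came from separate cultures, although the study treats each trio as biological replicates. P-values measure only the spread between these libraries. Libraries held 19139572 to 32274601 reads on genes, and levels are given as CPM, the counts of a gene divided by those reads and scaled to 1000000 reads.

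L(3)mbt is a chromatin protein with MBT repeats that keeps tissue-foreign genes, germline genes above all, silent in somatic cells, and Lint-O is a protein of OSCs that acts with it. The genes selected here are those that were higher without L(3)mbt while staying near the control level without Lint-O. The mRNA of l(3)mbt was at 120.5, 138 and 137 CPM in control libraries and at 73.9, 81.5 and 73.0 CPM after its own KD, 57.8% of the control mean, and at 165, 185 and 186 CPM after Lint-O KD. The Lint-O gene, listed as CG2662, was at 21.1, 20.9 and 20.5 CPM in controls, 24.9, 24.7 and 24.3 CPM after L(3)mbt KD and 3.83, 3.46 and 3.50 CPM after its own KD, 17.3% of the control mean. Neither knockdown was complete at the mRNA level, and the residual l(3)mbt mRNA was the larger share of its control level. These values are mRNA only. In the study's western blots, L(3)mbt protein was no longer seen after KD of L(3)mbt, nor Lint-O protein after KD of Lint-O. By western blotting, the study barely detected Lint-O protein in L(3)mbt-depleted OSCs, while Lint-O depletion had little effect on L(3)mbt protein.

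The members were found in steps. A mean of at least 1 CPM in control libraries was met by 7564 genes, and of these 512 had a mean after L(3)mbt KD of at least 2 times the control mean; in all 512 every L(3)mbt KD library was above every control library, a separation that 30.1% of the 7564 expressed genes showed at any size of difference. The Lint-O condition then removed 489, which left 23, or 4.49% of the 512. No symbol starting with Cpr, or with CR and a digit, had to be left out at the last step. The genes were thus chosen by their measured CPM in the control, L(3)mbt KD and Lint-O KD libraries, so their levels in all 3 conditions are descriptions, and calls for them are given only beside the share of all genes called.

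The annotated transcription starts of the genes are shown here because the promoter is one feature that the selection did not use. The initiator, a short element at the start itself, helps the basal machinery to position RNA polymerase II in many developmentally regulated fly genes, whereas the DNA replication-related element (DRE) and Motif 1 are found at many housekeeping promoters. Over 250 bases before to 50 bases after the annotated start of each gene in RefSeq (Release 6 assembly, dm6), 12 of 23 promoters (52.2%) had the initiator letters TCAGT on the gene's strand beginning within 10 bases of the start. The same was true of 25.6% of 469 other genes induced at least 2-fold by L(3)mbt KD, of 10.1% of 7277 expressed genes and of 13.1% of 13938 protein-coding genes. The 10-base limit was chosen after the members' sequences had been seen. Only the outermost start of each RefSeq gene record was read, so other starts of genes with several transcripts were not searched. Of the 12, the starts of 8 genes are printed below from 40 bases before to 20 bases after the annotated start, 5′ to 3′ on the gene's strand, with the initiator letters in capitals and, in CG10184, also a TATA box (TATAAA).
CG9990, chr3R:28675001-28675060 (+ strand): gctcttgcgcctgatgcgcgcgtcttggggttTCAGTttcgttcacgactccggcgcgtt
slow, chr3L:4384402-4384461 (+ strand): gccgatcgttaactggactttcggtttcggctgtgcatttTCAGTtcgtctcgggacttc
CG8519, chr3L:6704820-6704879 (+ strand): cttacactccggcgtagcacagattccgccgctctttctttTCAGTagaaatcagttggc
CG10184, chr3R:23605476-23605535 (- strand): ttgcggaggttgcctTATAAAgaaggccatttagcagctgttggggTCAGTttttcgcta
PGRP-LF, chr3L:9349569-9349628 (+ strand): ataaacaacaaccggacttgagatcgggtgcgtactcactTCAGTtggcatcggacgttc
Rph, chrX:10757647-10757706 (- strand): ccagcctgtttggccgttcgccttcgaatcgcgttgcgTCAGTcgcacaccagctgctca
bbg, chr3L:14536257-14536316 (- strand): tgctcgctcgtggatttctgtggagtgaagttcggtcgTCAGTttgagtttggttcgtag
Shal, chr3L:19584549-19584608 (- strand): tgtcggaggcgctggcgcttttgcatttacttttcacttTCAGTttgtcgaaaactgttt

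In slow and PGRP-LF the capitals began exactly at the annotated first base, in Shal 1 base before it, in Rph and bbg 2 bases before it, in CG8519 at base 2, in CG10184 at base 7 and in CG9990 8 bases before the start. The genes with the largest and second largest increase, Dif and CG42368, and Cyp28d1, had no TCAGT near their annotated starts, shown for comparison over the same 60 bases. Other spellings of the initiator were not searched in any gene, and Dif holds TCATT across its annotated start. These windows are therefore not shown to lack an initiator.
Dif, chr2L:17433142-17433201 (- strand): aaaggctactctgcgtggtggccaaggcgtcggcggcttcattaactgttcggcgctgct
CG42368, chr2L:6411307-6411366 (- strand): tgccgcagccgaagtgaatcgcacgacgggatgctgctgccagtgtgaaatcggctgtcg
Cyp28d1, chr2L:5210420-5210479 (+ strand): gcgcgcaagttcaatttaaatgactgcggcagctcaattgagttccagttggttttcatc

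Anywhere in the 300 bases and on either strand, TCAGT was present in 18 of 23 promoters (78.3%). The share was 58.6% among the 469 other induced genes, 46.3% among expressed genes and 51.5% among all protein-coding genes. The DRE (TATCGATA) and Motif 1 (GGTCACACT) were found in 0 of 23, against 15.8% and 10.9% of expressed genes and 9.4% and 6.0% of all; among the 469 other induced genes each was in 4.3%. A TATA box beginning 40 to 15 bases before the start was found in 1 of 23 promoters (4.3%), that of CG10184, and in 3.0% of expressed genes. Among the other motifs searched on both strands, GAGAG was in 8 of 23 (34.8%; 28.0% of expressed genes), TTTGAA in 7 (30.4%; 44.4%), the STAT letters TTCNNNGAA in 3 (13.0%; 9.0%), the AP-1 letters TGANTCA in 2 (8.7%; 6.0%) and GAANNTTC, part of the heat shock element, in 2 (8.7%; 8.8%). The NF-kB letters GGGNNTTCC were in 0 of 23 and in 2.6% of expressed genes. Where letters are missing, they are missing only from this window. Only the exact letters given were searched, so near spellings were not counted in any gene set. The windows of CG3812 and CG44774, for example, hold AATCGATA, which differs from the DRE letters in its first base.

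**Figure D1:**
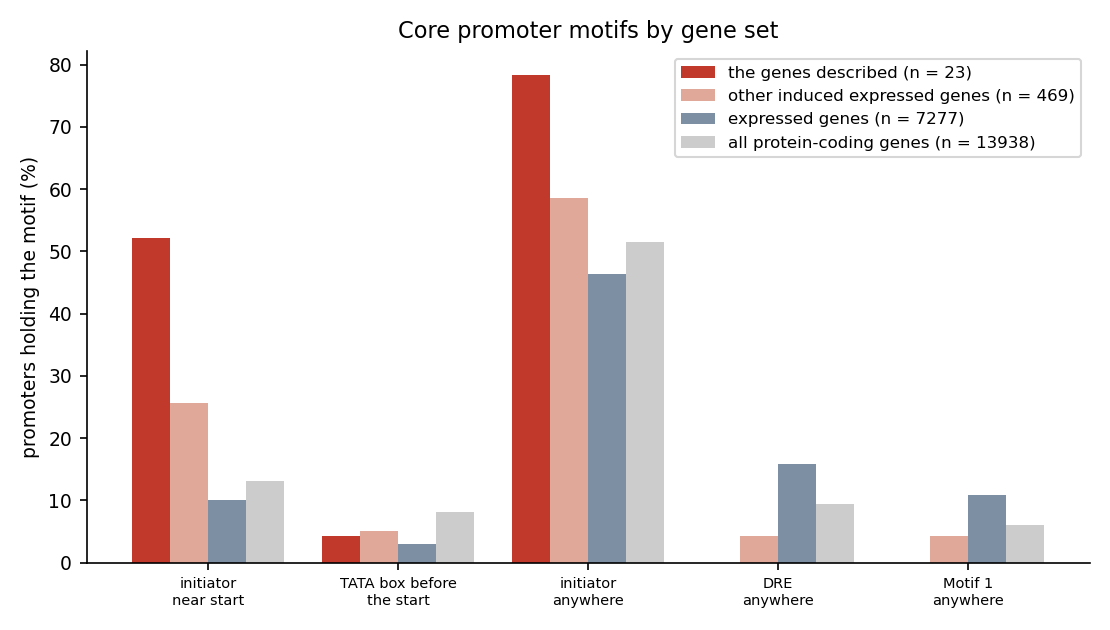
Bars give the percentage of promoters (250 bases before to 50 after the annotated start) that held each motif, for the 23 genes described, 469 other induced genes, 7277 expressed genes and 13938 protein-coding genes; the first 2 motifs were read on the gene's strand at the position named, the others anywhere on either strand. The initiator letters near the start were in 52.2% of the 23 promoters, in 25.6% of other induced promoters and in 10.1% of expressed promoters. The exact DRE and Motif 1 letters were in none of the 23.

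Library composition moved with the conditions in places. The share of reads outside genes was 8.45%, 7.97% and 2.76% in control replicates 1 to 3, 2.93% to 4.14% after L(3)mbt KD and 4.43% to 7.38% after Lint-O KD. The control library at 2.76% was lower in this share than any L(3)mbt KD library. The rule placed every L(3)mbt KD library above every control library in each of the 23 genes. Their summed levels therefore cannot show whether this share played a part. Of the marker lists, those of OSCs summed to 3713 to 3924 CPM in controls, 4055 to 4193 CPM after L(3)mbt KD and 3841 to 4036 CPM after Lint-O KD over 7 genes. Germ cell markers (10 genes) summed to 76.3 to 89.5, 636 to 699.9 and 402 to 439.9 CPM in the same order, and muscle markers (9 genes) to 152 to 169.8, 172 to 188 and 203 to 209.5 CPM, with Mlc1, Act88F and up at 3 counts or fewer in all controls. Late follicle cell markers (7 genes) summed to 1.12 to 1.89, 4.05 to 4.65 and 1.96 to 3.34 CPM, with Cp36, Cp38, Vm32E and Yp2 at 3 counts or fewer in all controls. In such bulk libraries a change in the number of expressing cells and a change in RNA per cell cannot be told apart, and the part of these markers in the levels of the 23 genes was not tested.

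The levels of the 23 genes were by the rule higher after L(3)mbt KD and close to control or lower after Lint-O KD, but they differed widely in level. Their mean control level ran from 1.02 to 81.6 CPM with a median of 2.61 CPM, against a median of 46.4 CPM over all expressed genes, and 18 of 23 were under 5 CPM, while CG44774, uzip, bbg and glob1 were above 10 CPM. The ratio of L(3)mbt KD to control means ran from 2.005 to 4.65 with a median of 2.23, and that of Lint-O KD to control from 0.858 to 1.247 with a median of 1.13, above 1 in 19 genes and below 1 in 4. Summed over the genes, control libraries held 209 to 218 CPM, L(3)mbt KD libraries 426 to 488 CPM and Lint-O KD libraries 234 to 243 CPM, so no condition overlapped another in these sums. CG44774, uzip and bbg, with control means of 81.6, 46.1 and 27.7 CPM, weighed most in them. The rule itself set L(3)mbt KD above control. In CG8519, bbg, uzip and CG10663 every Lint-O KD library was above every control library, and in 22 genes every Lint-O KD library was below every L(3)mbt KD library, with tow the exception. The shares of all expressed genes with these separations were not counted, so neither count can be called unusual. The second follows in large part from the limits of 2 and 1.25 in the rule.

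**Figure D2:**
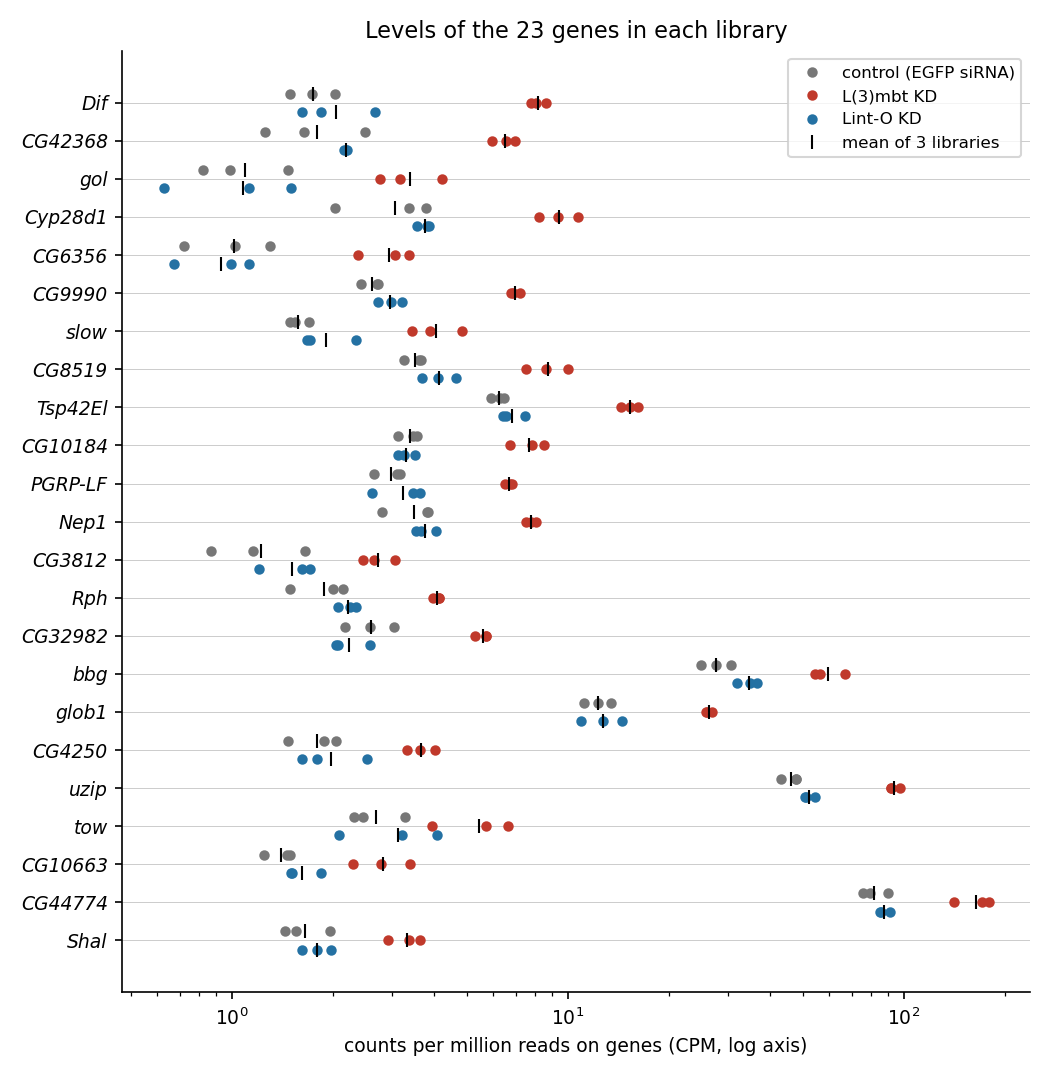
Each point is 1 library and each vertical tick the mean of the 3 libraries of a condition, in CPM on a log axis, with 1 row per gene in the order of the L(3)mbt KD to control ratio. The red points of L(3)mbt KD lie to the right of the grey control points in all 23 rows, while the blue points of Lint-O KD lie among or close to the control points.

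Compared with the 489 induced genes that the Lint-O condition removed, the 23 had a smaller increase. Both ratios divide by the same control mean, so a limit on the Lint-O KD ratio also bears on the L(3)mbt KD ratio. The removed genes had a median L(3)mbt KD to control ratio of 3.40 and a median Lint-O KD to control ratio of 2.50, with quartiles of 1.90 and 4.24, and their median control level was 3.79 CPM. In 82 of the 489 the Lint-O KD mean was at or above the L(3)mbt KD mean. Of the 23, 19 had ratios between 2 and 3, 6 had a ratio under 2.1, and 4 (Dif, CG42368, gol and Cyp28d1) exceeded 3.

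**Figure D3:**
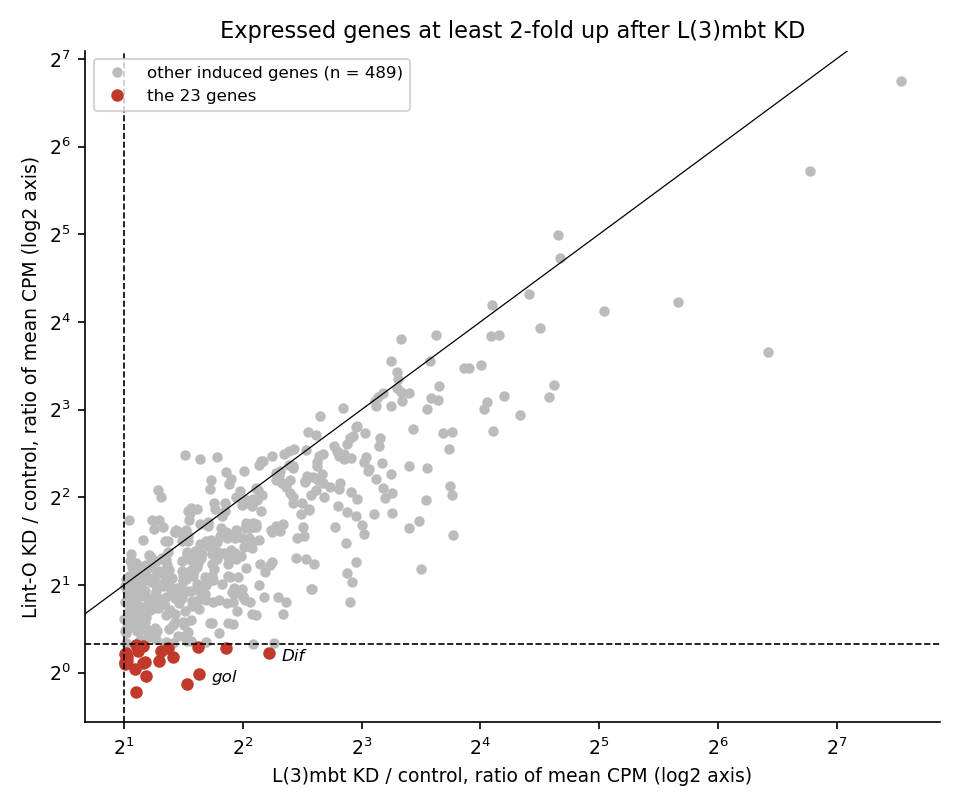
Each point is an expressed gene at least 2-fold higher after L(3)mbt KD, placed by its L(3)mbt KD to control ratio (horizontal, log2 axis) and its Lint-O KD to control ratio (vertical, log2 axis); dashed lines mark the limits of 2 and 1.25 and the solid line equal ratios. The 23 red points fill the strip under 1.25 and, Dif excepted at 4.65, lie under a horizontal value of 4.

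Membership rested on thresholds that many of the genes only just met. CG6356 (1.02 CPM) and gol (1.09 CPM) were the lowest in control cells, with TfIIA-S-2 (0.863 CPM) and Dhit (0.843 CPM) just outside; Shal and CG44774 had L(3)mbt KD ratios of 2.005 and 2.007, with CG32364 (1.988) and CG42817 (1.985) just outside; and bbg and CG3812 had Lint-O KD ratios of 1.247 and 1.232, with CG5955 (1.251) and CG3036 (1.260) just outside. Under 13 other settings (3 other scalings, medians in place of means, and each of the 9 libraries left out), the rule gave 19 to 29 genes, 13 to 22 of them shared with the 23. Only CG10184, CG9990, Nep1, PGRP-LF, Tsp42El and glob1 met it under all 13 settings; tow met it under 4. Without control replicate 1 the rule gave 19 genes, of which 13 were shared, the fewest of any left-out library. CG5955, which missed by its Lint-O KD ratio, had an L(3)mbt KD ratio of 4.25, higher than all of the 23 but Dif.

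**Figure D4:**
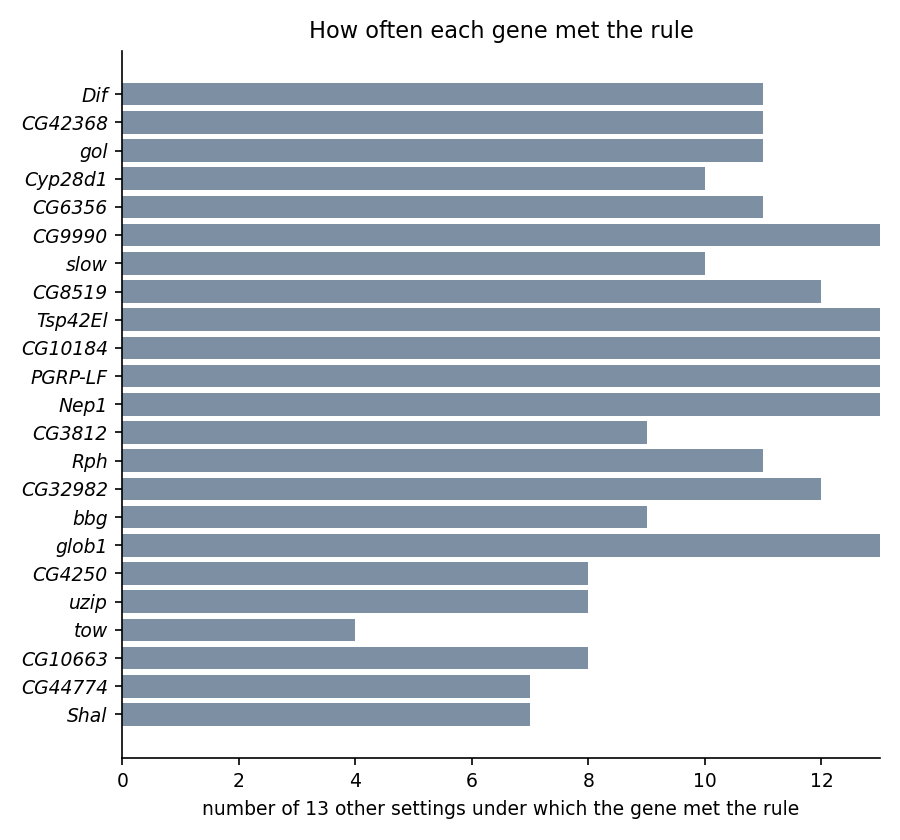
Bars give, for each gene, the number of 13 other settings under which it still met the rule, with genes in the order of the L(3)mbt KD to control ratio. The 6 genes at 13 are CG9990, Tsp42El, CG10184, PGRP-LF, Nep1 and glob1, and the shortest bar, tow, stands at 4.

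In the fit across 8726 genes (edgeR quasi-likelihood test, false discovery rate (FDR) 0.01), 22.6% of genes were called higher and 15.9% lower after L(3)mbt KD, and 23 of 23 members were called higher, as the rule all but required; with library totals in place of TMM scaling, 70.3% of all calls were higher in place of 58.7%. After Lint-O KD 16.8% of genes were called higher and 7.58% lower, and 0 of 23 members were called by edgeR or by DESeq2, with 2 (bbg and uzip) at an unadjusted p under 0.05. Between the knockdowns directly, 9.24% of genes were called higher in L(3)mbt KD and so were 21 of 23 members, all but CG3812 and tow. The median log2 fold change of the members was 1.11 for L(3)mbt KD and 0.15 for Lint-O KD against control, and over all genes -0.02 and 0.01. The conditions share the control libraries and the rule used all of these contrasts, so the counts describe the selection.

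Among regulators of immunity, the genes included Dif and PGRP-LF. Insects detect bacterial and fungal cell walls through peptidoglycan recognition proteins and the Toll and Imd pathways, which end in NF-kB transcription factors (Dif and dorsal for Toll, Relish for Imd) that switch on antimicrobial peptide genes. Dif (chr2L:17413248-17433161, - strand) was at 1.74, 2.02 and 1.49 CPM in controls, 7.78, 8.60 and 8.05 CPM after L(3)mbt KD and 1.62, 1.84 and 2.67 CPM after Lint-O KD. It showed the largest increase of the 23, 4.65-fold, with no overlap between the L(3)mbt KD libraries and either other condition. PGRP-LF (chr3L:9349609-9351489, + strand), a transmembrane recognition protein that dampens Imd signalling, was at 3.17, 2.65 and 3.10 CPM in controls, 6.84, 6.53 and 6.73 CPM after L(3)mbt KD and 3.45, 3.64 and 2.61 CPM after Lint-O KD. Its L(3)mbt KD libraries lay close together, at 6.70 ± 0.160 CPM (SD, n = 3), and the other conditions interleaved.

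Other genes of the Toll and Imd pathways moved in both directions. Of 22 listed pathway genes other than Dif that could be tested, 9 were called higher and 4 lower after L(3)mbt KD, and 6 higher and 3 lower after Lint-O KD, with median log2 fold changes of 0.21 and 0.20 (edgeR, FDR 0.01; list drawn up with earlier results known). Of all 8726 genes tested, 22.6% were called higher and 15.9% lower after L(3)mbt KD, and 16.8% higher and 7.58% lower after Lint-O KD, with medians of -0.02 and 0.01. key, the regulatory subunit of the IKK complex that acts on Relish, rose from 159 ± 5.20 to 353 ± 13.9 CPM after L(3)mbt KD and to 230 ± 1.76 CPM after Lint-O KD (SD, n = 3; log2 fold changes 1.09 and 0.50). PGRP-SC2, an amidase that degrades peptidoglycan, rose from 0.797 ± 0.199 to 8.70 ± 0.371 and 3.98 ± 0.592 CPM. PGRP-SD rose most on the list after L(3)mbt KD (log2 fold change 3.87), from 0.04 ± 0.0453 to 0.665 ± 0.246 CPM. After Lint-O KD it was at 0.126 ± 0.0741 CPM (1.48, not called), and the knockdowns passed against each other (2.39). Of 5 tested PGRP genes other than PGRP-LF, 4 were called higher and 1 lower after L(3)mbt KD, and 3 higher after Lint-O KD. The shares of all genes are given above, and this family was chosen with the members known. Relish (Rel), the Imd counterpart of Dif, rose by 0.46 and 0.27 on the log2 scale, whereas dorsal (dl), the closest relative of Dif, fell by 0.39 and 0.27, and cact, the inhibitor that holds dorsal and Dif in the cytoplasm, fell by 0.19 and 0.22. The serpin nec, an inhibitor of Toll activation, fell after L(3)mbt KD (log2 fold change -3.74, from 0.705 ± 0.226 to 0.0465 ± 0.0805 CPM). After Lint-O KD it was at 0.304 ± 0.0752 CPM (-1.28, not called), and the knockdowns did not pass against each other (-2.46). pirk, a negative regulator of Imd, rose after L(3)mbt KD (0.60) and had a log2 fold change of 0.04 after Lint-O KD, and the knockdowns differed directly by 0.55. Of the antimicrobial peptide genes that Toll and Imd switch on, AttD was at 0.89, CecA1 at -0.55, CecA2 at -0.61, CecB at -0.41 and Def at 0.86 after L(3)mbt KD, none of which passed, while AttD (1.54) and CecA1 (0.62) rose after Lint-O KD and CecA2 (0.96), CecB (0.53) and Def (-0.10) did not pass. Between the knockdowns, CecA1 (-1.17) and CecB (-0.93) were lower after L(3)mbt KD, while AttD (-0.65), CecA2 (-1.56) and Def (0.95) did not pass. Drs, DptB, AttA, AttB, AttC, CecC, Mtk and Dro had too few reads to be tested. Hemocyte markers summed to 78.7 to 81.5 CPM in controls, 103 to 110.2 CPM after L(3)mbt KD and 105 to 113 CPM after Lint-O KD over 8 genes, with NimC1, eater and He at 3 counts or fewer in every control library; their part in these values was not tested.

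**Figure D5:**
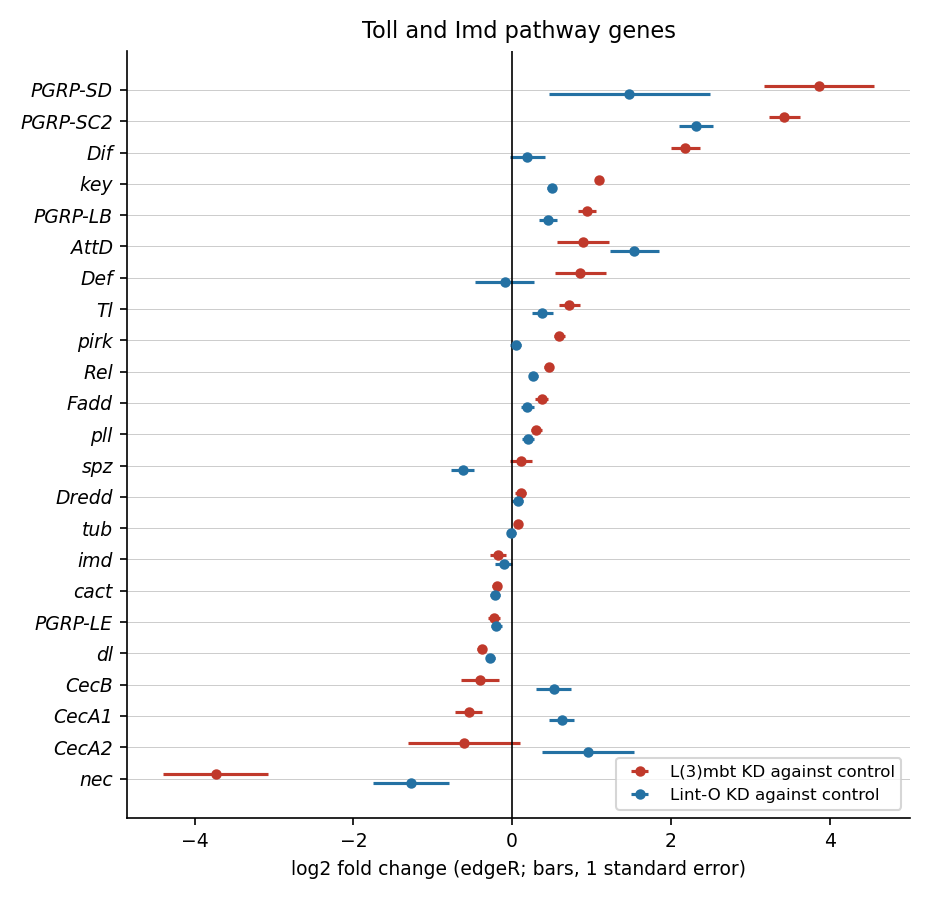
Points are log2 fold changes against control from edgeR for 23 Toll and Imd pathway genes (Dif and 22 others), with bars of 1 standard error, red for L(3)mbt KD and blue for Lint-O KD. Dif stands at 2.18 in red and 0.19 in blue, while PGRP-SC2 and key are to the right of 0 in both colours and dl and cact to the left in both.

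Genes of cell surface and adhesion proteins made up the next group. CG42368 (chr2L:6377771-6411326, - strand; DIP-epsilon in RefSeq), an immunoglobulin-domain protein that binds Dpr proteins on neurons, was at 2.50, 1.25 and 1.64 CPM in controls, 6.96, 6.57 and 5.96 CPM after L(3)mbt KD and 2.16, 2.20 and 2.19 CPM after Lint-O KD. Its increase was second to that of Dif, 3.61-fold, although its control libraries spread widely. uzip (chr2R:25012062-25031737, + strand), an adhesion protein of axon tracts, was at 47.7, 47.7 and 43.0 CPM in controls, 91.7, 97.8 and 91.9 CPM after L(3)mbt KD and 51.0, 51.4 and 54.6 CPM after Lint-O KD. It had one of the highest levels of the 23 per kb of exon as well, at 11.2 CPM per kb in controls and 22.8 CPM per kb after L(3)mbt KD, and all 3 conditions were separate in their libraries. bbg (chr3L:14412828-14536276, - strand), a PDZ-domain protein of epithelial borders, was at 30.5, 27.6 and 24.9 CPM in controls, 54.6, 67.1 and 56.4 CPM after L(3)mbt KD and 32.0, 34.9 and 36.7 CPM after Lint-O KD. Here too the Lint-O KD libraries stood above the control libraries, and the Lint-O KD ratio of 1.247 was the highest of the 23.

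Tsp42El (chr2R:7045769-7048538, + strand), a tetraspanin (a membrane protein with 4 passes that organises other surface proteins), was at 6.29, 5.93 and 6.48 CPM in controls, 14.4, 15.3 and 16.1 CPM after L(3)mbt KD and 6.41, 6.57 and 7.47 CPM after Lint-O KD. The control and Lint-O KD libraries overlapped and the L(3)mbt KD libraries were far above both. slow (chr3L:4384442-4403181, + strand), a secreted protein of muscle attachment sites, was at 1.69, 1.54 and 1.49 CPM in controls, 3.44, 4.86 and 3.90 CPM after L(3)mbt KD and 1.71, 2.34 and 1.67 CPM after Lint-O KD. The Lint-O KD replicate 2 was the high library of its group, still below every L(3)mbt KD library.

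Relatives of these genes, chosen once the members were known, did not share 1 pattern. Of 16 other genes with a Tsp42E symbol, 7 could be tested (edgeR, FDR 0.01). Tsp42Ea, Tsp42Eg and Tsp42Ej were called higher after L(3)mbt KD, and Tsp42Ea and Tsp42Ed after Lint-O KD, against 22.6% and 16.8% of all genes. Genes of the cluster under other symbols were not counted, among them lbm beside Tsp42El, whose values are given with the neighbours below. Tsp42Ej rose from 1.39 ± 0.215 to 5.98 ± 0.472 CPM after L(3)mbt KD and was at 2.18 ± 0.526 CPM after Lint-O KD (log2 fold change 0.59, not called), and Tsp42Eg rose by 1.89 after L(3)mbt KD at 0.196 ± 0.0630 CPM in controls; both also passed between the knockdowns, at 1.44 and 2.70, while Tsp42Ea rose by 1.08 and 1.15, about equally. Of 12 tested dpr genes, whose proteins pair with DIP proteins, 6 were called higher and 2 lower after L(3)mbt KD, and 5 higher and 1 lower after Lint-O KD, where all genes gave 22.6% and 15.9%, and 16.8% and 7.58%; dpr19 rose from 6.82 ± 1.52 to 35.7 ± 2.82 and 39.3 ± 3.08 CPM. dpr16 was called higher after L(3)mbt KD (log2 fold change 1.80) with -0.11 after Lint-O KD, at a mean control level of 0.482 CPM, under the limit of the rule, and passed between the knockdowns at 1.91. Of 4 tested DIP genes other than CG42368, 0 were called higher and 1 lower after L(3)mbt KD, and none after Lint-O KD, beside the same shares of all genes. The 1 called, CG42343, fell after L(3)mbt KD by 1.26 and had -0.27 after Lint-O KD. It also passed between the knockdowns, at -0.99.

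The genes that follow are mostly enzymes or carriers, placed together by their known roles. Cyp28d1 (chr2L:5210460-5212445, + strand), a cytochrome P450 of the class that oxidises foreign compounds, was at 3.79, 2.02 and 3.38 CPM in controls, 9.34, 10.8 and 8.19 CPM after L(3)mbt KD and 3.87, 3.82 and 3.55 CPM after Lint-O KD. Control replicate 2 was its low library, and the gene no longer met the rule without control replicate 1, control replicate 3 or Lint-O KD replicate 3. glob1 (chr3R:15896926-15904643, - strand), an intracellular globin that binds oxygen, was at 12.3, 11.2 and 13.4 CPM in controls, 25.8, 26.9 and 26.0 CPM after L(3)mbt KD and 14.5, 12.7 and 10.9 CPM after Lint-O KD. Its L(3)mbt KD libraries lay within 25.8 to 26.9 CPM and the others overlapped between 10.9 and 14.5 CPM.

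CG9990 (chr3R:28675041-28695939, + strand; snu in RefSeq), an ABC transporter needed for the lipid barrier of the cuticle, was at 2.72, 2.70 and 2.42 CPM in controls, 7.19, 6.79 and 6.87 CPM after L(3)mbt KD and 3.21, 2.97 and 2.72 CPM after Lint-O KD. All of its conditions were tight, with SDs of 0.169, 0.211 and 0.244 CPM. CG6356 (chr3R:24283955-24288617, + strand; Slc22a16 among its synonyms) was at 1.02, 0.723 and 1.30 CPM in controls, 3.36, 3.06 and 2.37 CPM after L(3)mbt KD and 1.12, 0.675 and 0.993 CPM after Lint-O KD. It had the lowest control level of the 23 and was among the 4 genes whose Lint-O KD mean was below control. Its exons overlap those of CG34290 on the opposite strand, which was called higher after L(3)mbt KD, and reads of the pair may not be separated. CG10184 (chr3R:23602507-23605495, - strand) was at 3.57, 3.47 and 3.13 CPM in controls, 8.48, 6.75 and 7.81 CPM after L(3)mbt KD and 3.25, 3.51 and 3.13 CPM after Lint-O KD, with full overlap of the last condition with control.

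Nep1 (chrX:6091205-6103971, + strand), a membrane metallopeptidase that cleaves signalling peptides, was at 2.81, 3.81 and 3.84 CPM in controls, 7.78, 8.05 and 7.53 CPM after L(3)mbt KD and 3.54, 4.05 and 3.66 CPM after Lint-O KD. It met the rule under all settings. CG3812 (chrX:12765266-12772851, + strand; Agpat1 in RefSeq), an acyltransferase that makes phosphatidic acid, was at 1.22 ± 0.395, 2.73 ± 0.309 and 1.51 ± 0.270 CPM (SD, n = 3) in the same order of conditions. CG10663 (chr3L:12474418-12485035, - strand; SP30 among its synonyms) was at 1.40 ± 0.132, 2.82 ± 0.544 and 1.62 ± 0.195 CPM (SD, n = 3). These were among the low genes, for which few reads per library carry the ratio.

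The families of these enzymes gave a mixed account. Of 7 tested neprilysin-like genes other than Nep1, 5 were called higher and 1 lower after L(3)mbt KD, and 3 higher and 1 lower after Lint-O KD (edgeR, FDR 0.01), beside 22.6% and 15.9%, and 16.8% and 7.58%, of all genes. Nep2 rose from 2.75 ± 0.429 to 41.1 ± 1.10 and 30.6 ± 0.752 CPM, in both knockdowns. Cyp28d2, which lies 1115 bases from Cyp28d1 on the same strand, was at 0.906 ± 0.226, 0.876 ± 0.315 and 1.02 ± 0.217 CPM and was not called. Relatives of Agpat1 differed as well: CG4753 rose by 2.81 and 2.57 on the log2 scale, CG4729 fell by 0.26 after L(3)mbt KD, and fu12 (Agpat2 in RefSeq) fell by 0.22 after L(3)mbt KD and rose by 0.23 after Lint-O KD, with a difference of -0.45 between the knockdowns that passed. On a list of 29 tested genes of xenobiotic and oxidative stress other than Cyp28d1, 6 were called higher and 5 lower after L(3)mbt KD, with a median of -0.02, and 3 higher and 6 lower after Lint-O KD, with a median of -0.04, against the same shares of all genes. GstS1, a glutathione transferase, rose from 54.9 ± 3.59 to 199.9 ± 4.17 and 95.2 ± 2.59 CPM, and GstD2 fell by 1.37 after L(3)mbt KD.

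Shal and Rph have known roles in neurons or vesicles. Shal (chr3L:19566851-19584568, - strand), the Kv4 channel that carries the transient potassium current of neuronal cell bodies and dendrites, was at 1.96, 1.45 and 1.55 CPM in controls, 3.63, 3.38 and 2.93 CPM after L(3)mbt KD and 1.79, 1.98 and 1.62 CPM after Lint-O KD. Rph (chrX:10749077-10757666, - strand), rabphilin, which binds Rab proteins on secretory vesicles, was at 2.01, 1.49 and 2.14 CPM in controls, 4.14, 4.14 and 3.97 CPM after L(3)mbt KD and 2.25, 2.07 and 2.35 CPM after Lint-O KD. Both had L(3)mbt KD libraries above all others, at no more than 4.14 CPM. Neuron markers summed to 95.0 to 141 CPM in controls, 113 to 130.4 CPM after L(3)mbt KD and 118 to 144 CPM after Lint-O KD over 8 genes, so that the ranges overlapped, and brp, VGlut and fne were at 3 counts or fewer in every control library. Shaw, another voltage-gated potassium channel, fell after L(3)mbt KD by 0.32 on the log2 scale (edgeR adjusted p = 0.00856).

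The remaining genes had roles in signalling or none that is established. gol (chr2R:25072627-25084347, - strand), a RING-finger ubiquitin ligase of endosomes, was at 1.47, 0.819 and 0.991 CPM in controls, 3.17, 4.23 and 2.75 CPM after L(3)mbt KD and 1.50, 1.12 and 0.627 CPM after Lint-O KD. Its lowest library in all conditions was Lint-O KD replicate 3, and its counts were the smallest basis for a ratio above 3. CG8519 (chr3L:6704860-6709000, + strand) was at 3.25, 3.61 and 3.66 CPM in controls, 10.0, 8.60 and 7.53 CPM after L(3)mbt KD and 4.12, 3.69 and 4.65 CPM after Lint-O KD, with all conditions separate. CG32982 (chr2L:9125737-9163721, + strand) was at 2.59, 2.17 and 3.04 CPM in controls, 5.32, 5.71 and 5.72 CPM after L(3)mbt KD and 2.58, 2.07 and 2.04 CPM after Lint-O KD. Its Lint-O KD ratio of 0.858 was the lowest of the 23, and its control and Lint-O KD libraries overlapped. tow (chr3L:6942856-6949313, + strand) was at 2.32, 2.46 and 3.28 CPM in controls, 6.64, 5.71 and 3.94 CPM after L(3)mbt KD and 3.21, 4.09 and 2.09 CPM after Lint-O KD. L(3)mbt KD replicate 3 fell below Lint-O KD replicate 2, the only such case among the 23. CG4250 (chr2R:22663692-22664474, + strand) was at 1.80 ± 0.295, 3.66 ± 0.349 and 1.98 ± 0.478 CPM (SD, n = 3).

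CG44774 (chrX:4926664-4938105, - strand) had the highest level of the 23 in CPM and per kb of exon (19.4 CPM per kb in controls and 38.9 after L(3)mbt KD). RefSeq lists it as a protein-coding gene with 8 transcripts. Its locus holds the long hairpin RNA hp-CG4068. Dicer-2 cuts this hairpin into endogenous siRNAs that load into AGO2 and are known to act on mus308, a DNA polymerase gene. The counts are for the whole gene, and the part of the hairpin in them was not tested. CG44774 was at 75.7, 79.5 and 89.6 CPM in controls, 172, 179 and 141 CPM after L(3)mbt KD and 85.6, 91.1 and 85.1 CPM after Lint-O KD. L(3)mbt KD replicate 3 was its low library of that group, and the control and Lint-O KD libraries overlapped. In the last 600 bases of the gene (chrX:4926664-4927263) the reference holds copies of a unit of 270 bases, 99.7% identical between copies, and RNAfold paired 65.9% of the bases of 1 unit with each other (89 base pairs). Of all 25-base stretches in its exons 25.4% occur more than once in the genome, so reads there cannot be placed uniquely and its counts are uncertain. mus308 itself was at 33.3 ± 1.19 CPM in controls, 41.7 ± 2.18 CPM after L(3)mbt KD and 39.8 ± 3.27 CPM after Lint-O KD (SD, n = 3), called higher in the first comparison (log2 fold change 0.27, edgeR adjusted p = 0.00388). AGO2 rose by 0.47 after L(3)mbt KD, while Dcr-2 and r2d2, a partner of Dicer-2, each fell by 0.34. These 3 had 0.18, 0.03 and -0.12 after Lint-O KD, not called. Each of them differed between the knockdowns directly (0.29, -0.37 and -0.23, edgeR, FDR 0.01), whereas mus308 did not pass there (0.04, edgeR adjusted p = 0.684). loqs, listed with the same hairpin RNA genes, was called in neither knockdown (0.24 and 0.22) nor between them (0.02).

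By position the genes were dispersed. They lay on chromosome arms 2L (4), 2R (4), 3L (7), 3R (4) and X (4), and none was the nearest listed neighbour of another. Of the 46 nearest genes on either side that do not overlap a member, 25 could be tested, and 6 of them (24.0%) were called higher after L(3)mbt KD (edgeR, FDR 0.01), close to the 22.6% of all genes, and 4 (16.0%) after Lint-O KD, against 16.8%. lov, 1433 bases from gol, rose by 2.20 and 1.92 on the log2 scale, and CG10660, 1633 bases from CG10663, by 1.41 and 0.77, each in both knockdowns. Ca-alpha1T, 114 bases from Nep1, rose by 1.92 after L(3)mbt KD and had 0.98 after Lint-O KD without a call, and the knockdowns did not pass against each other (0.94). SP1173, 1339 bases from CG8519, rose by 0.47 after L(3)mbt KD with 0.04 after Lint-O KD, and CG31145, 256 bases from CG10184, rose by 0.39 with -0.14. Both passed between the knockdowns, at 0.44 and 0.53. lbm, 700 bases from Tsp42El, was called against neither control (0.27 and -0.55) but passed between the knockdowns at 0.82. CG6903, beside CG44774, rose by 0.28 in both knockdowns, and zip, beside uzip, rose by 0.22 after Lint-O KD. In the opposite direction, htt beside CG9990 fell by 0.55 and ple beside CG8519 by 0.49 after L(3)mbt KD, and both were lower than after Lint-O KD (-0.77 and -0.56). Exons of 8 genes overlapped those of a gene on the opposite strand, over 1008 bases in CG3812 (CG32647), 602 in PGRP-LF (UGP), 267 in Nep1 (Mipp2), 252 in Dif (CG15141), 65 in CG6356 (CG34290), 51 in Cyp28d1 (CG7742), 21 in Rph (ras) and 11 in CG10663 (CG10616). Of these partners CG34290 was itself called higher after L(3)mbt KD. No read was counted in any control library, where 3 reads would be 0.093 to 0.145 CPM. Its L(3)mbt KD libraries were at 4.61, 4.28 and 4.57 CPM, and its Lint-O KD libraries, at 0.125, 0.000 and 0.104 CPM, were not called. The 86, 68 and 68 reads of CG6356 after L(3)mbt KD stood beside 118, 95 and 131 reads of CG34290, whose part in the CG6356 count was not tested. ras was called lower after L(3)mbt KD (-0.26), and CG7742 could not be tested. The other 5 partners were not called. The strand setting of the counting is not given in the sources used here, so reads from these stretches cannot be attributed with certainty. Repeated 25-base stretches made up 23.7% of the exons of glob1 and 14.3% of those of CG3812, and under 1% in the 20 genes other than these and CG44774. The members' exons had a median length of 3174 bases, against 2152 for expressed genes.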

How the data were processed

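RNA-seq read counts of 9 libraries of OSCs (3 control, 3 L(3)mbt KD and 3 Lint-O KD, poly-A selected RNA) were analysed. The authors deposited raw counts per gene in 1 table; the submitters' processing notes name HISAT2, HTSeq and the dm6 build, and versions, annotation and strand setting are not given in the sources used here. The 5 rows that name no gene were left out; reads outside genes made up 2.76% to 8.45% and ambiguous reads 1.47% to 1.61% of the reads listed per library. ChIP-seq libraries of the series were not analysed here. The members, gene lists and motifs were chosen with earlier results of these data known.

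Members were chosen on CPM of reads on genes: mean control CPM of at least 1, L(3)mbt KD to control ratio of at least 2, Lint-O KD to control ratio of at most 1.25, and no overlap of L(3)mbt KD and control libraries. Counts of all genes were fitted with the edgeR quasi-likelihood test (version 4.0.16, R 4.3.3; filterByExpr, TMM, robust fit, all 9 libraries, Benjamini-Hochberg over 8726 genes, FDR 0.01), tested first on simulated counts. DESeq2 (1.42.0), other scalings, filters, thresholds, a replicate block, a covariate for reads outside genes (added after the data were seen) and each library left out were alternatives. All 23 members passed the filter on low counts. Their lowest count in a control library was 15, so the ratios of the low genes carry wide counting error.

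All members may be named; values in every library were given for the 10 largest ratios, the 5 highest levels, the 5 lowest Lint-O KD ratios, members of fixed lists and members with a well-known role. Of 16727 symbols 98.8% matched RefSeq genes of the Release 6 assembly (the same as dm6), from which positions and sequences were read. Between control and Lint-O KD, libraries with the same replicate number deviated together across genes (r = 0.12, 0.13 and 0.30), whereas between control and L(3)mbt KD they did not (r = -0.17, -0.11 and -0.20); the labels say only that the numbers are replicates.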

Additional observations from a re-analysis of the deposited data

How the results depend on the processing

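The rule gave 23 genes, 19 to 28 with 1 library left out, and 13 with a minimum control level of 2 CPM, which drops 10 genes by its construction. The count of members called higher after L(3)mbt KD was 22 or 23 without 1 library, and higher than after Lint-O KD 18 to 22. Members called higher after Lint-O KD numbered 0, and 1 (bbg) without a filter on low counts, at an FDR of 0.05, and in the range of 0 to 1 without 1 library (L(3)mbt KD replicate 2). With the replicate block, 23 members were called higher after L(3)mbt KD, 0 after Lint-O KD and 20 against Lint-O KD (21 without the block), and no call after either knockdown against control changed. With the share of reads outside genes as a covariate the counts were 22, 0 and 18. Over all genes, requiring a log2 fold change of at least 1 left 1091 of 1973 higher after L(3)mbt KD, 790 of 1466 higher and 28 of 661 lower after Lint-O KD, and 292 of 806 higher against Lint-O KD. An FDR of 0.05 gave 1204 lower after Lint-O KD and 1238 higher against it, and no filter gave 996 lower after Lint-O KD; without 1 library this last count ran from 394 (Lint-O KD replicate 2) to 909. Of 1173 refitted log2 fold changes of members, 1146 moved by less than their standard error and 0 called ones changed sign. Low counts limit the genes near 1 CPM; the causes of the differences between settings were not tested.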

Other observations

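Other settings of the rule brought in 28 genes that were not among the 23, of which 8 under 1 setting and 4 under at least 5 of the 13. Those 4 were CG5955, form3, CG3036 and nemy, which missed the 1.25 limit narrowly. CG5955 was at a mean of 3.15 CPM in controls, 13.4 CPM after L(3)mbt KD and 3.94 CPM after Lint-O KD. form3, a formin that assembles actin filaments, was at 1.29, 6.17 and 1.63 CPM, a ratio of 4.79 after L(3)mbt KD and 1.26 after Lint-O KD. CG3036 was at 5.38, 14.3 and 6.78 CPM, and nemy, a cytochrome b561 linked to memory in flies, at 13.6, 43.8 and 17.3 CPM. Fas3, an adhesion protein of follicle cells that marks OSCs, came in under 1 setting, at 17.1, 32.8 and 19.9 CPM with a ratio of 1.92. These genes were found after their values had been seen, and no test was made on them.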
